A study of Mus musculus with 14 samples.

Results

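The 10 genes described here carry or report the signal of leukemia inhibitory factor (LIF) in mouse embryonic stem cells (ESCs). They were taken by symbol from the RNA-seq table: the receptor subunits Lifr and Il6st, the kinase Jak1, the transcription factor Stat3, the feedback inhibitor Socs3, and the targets Bcl3, Pim1, Pim3, Junb and Gbx2. They are 10 of 41204 gene entries, and all 10 were among the 15430 genes with a mean above 0.2 FPKM (fragments per kilobase of transcript, scaled to the mapped fragments of the library) over the 8 samples. LIF binds LIFR paired with gp130, the product of Il6st, and the attached JAK kinases phosphorylate STAT3, which enters the nucleus and switches on its targets. SOCS3 then binds gp130 and JAK and turns the signal down. In mouse ESCs this pathway sustains self-renewal, and it acts beside MEK inhibition and GSK3 inhibition in defined medium.

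Poly(A)-selected RNA was sequenced from wild-type ESCs and from ESCs in which the long noncoding RNA Trincr1 (Gm2694) was deleted by CRISPR with a pair of guides, all of the background C57BL/6(F) x 129/sv(M). Each genotype was grown in 2i + LIF, which is N2B27 medium with the MEK inhibitor PD0325901 at 1.0 μM, the GSK3 inhibitor CHIR99021 at 3.0 μM and LIF at 1000 units per ml, or in PD + LIF, where cells spent 24 h in 2i + LIF and then 4 days without CHIR99021. LIF and PD0325901 were therefore present in all 4 groups, no group was without LIF, and the only agent that differed was CHIR99021. The time from plating to harvest is not given for the samples in 2i + LIF. Any difference in that time between the media cannot be told apart from the absence of CHIR99021. Each group held 2 samples, nothing says whether these were separate cultures, and p-values then measure only the spread between samples, which may be technical. Separate knockout clones existed in the study, and the sources used here do not give which was sequenced.

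Gm2694, the targeted gene, read 5.70, 9.45, 6.18 and 6.56 FPKM in the 4 wild-type samples, 0.0754 and 0 FPKM in the knockout samples in 2i + LIF, and 1.38 and 0.746 FPKM in those in PD + LIF. The knockout mean was thus 0.498% of wild type in 2i + LIF and 16.7% in PD + LIF. This rise between the media in knockout cells passed (limma on log2(FPKM + 1), log2 fold change 0.98 ± 0.23, adjusted p = 0.0105), and its source was not tested. An estimate from the smallest steps of the FPKM values gave a depth of 10.3 to 14.1 M fragments per sample, and between 104 and 2291 fragments for any of the 10 genes in a sample. Summed FPKM of 6 defining ESC genes (Pou5f1, Sox2, Nanog, Zfp42, Esrrb, Tbx3) was 1635 to 1643 in wild-type and 1630 to 1657 in knockout cells in 2i + LIF, and 1069 to 1103 against 867 to 907 in PD + LIF. Primed epiblast markers (5 genes) moved the other way, at 64.8 to 66.1 and 64.5 to 65.5 in 2i + LIF and 133 to 152 against 213 to 231 in PD + LIF. Summed markers of feeder fibroblasts (7 genes), primitive endoderm (7 genes) and trophoblast (6 genes) reached at most 15.4 FPKM, were highest in knockout cells in PD + LIF, and none of these genes was at 0 in all 8 samples. Single genes did not all follow these sums. Sox2 rose in wild-type cells, from a mean of 146 FPKM in 2i + LIF to 179 in PD + LIF, while the other ESC genes fell. Gata3, Hand1 and Krt7 were higher in PD + LIF in both genotypes. Cdx2 and Eomes were lower there, in knockout cells at 0.138 and 0.883 FPKM against 3.02 and 1.97 in 2i + LIF. Cdx2 was at 0.746 FPKM in wild-type cells in 2i + LIF, below the knockout (limma on log2(FPKM + 1), adjusted p = 0.0120). The part of these shifts in the results below was not tested. In bulk RNA, fewer cells that express a gene and less of its RNA per cell cannot be told apart.

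**Figure D1:**
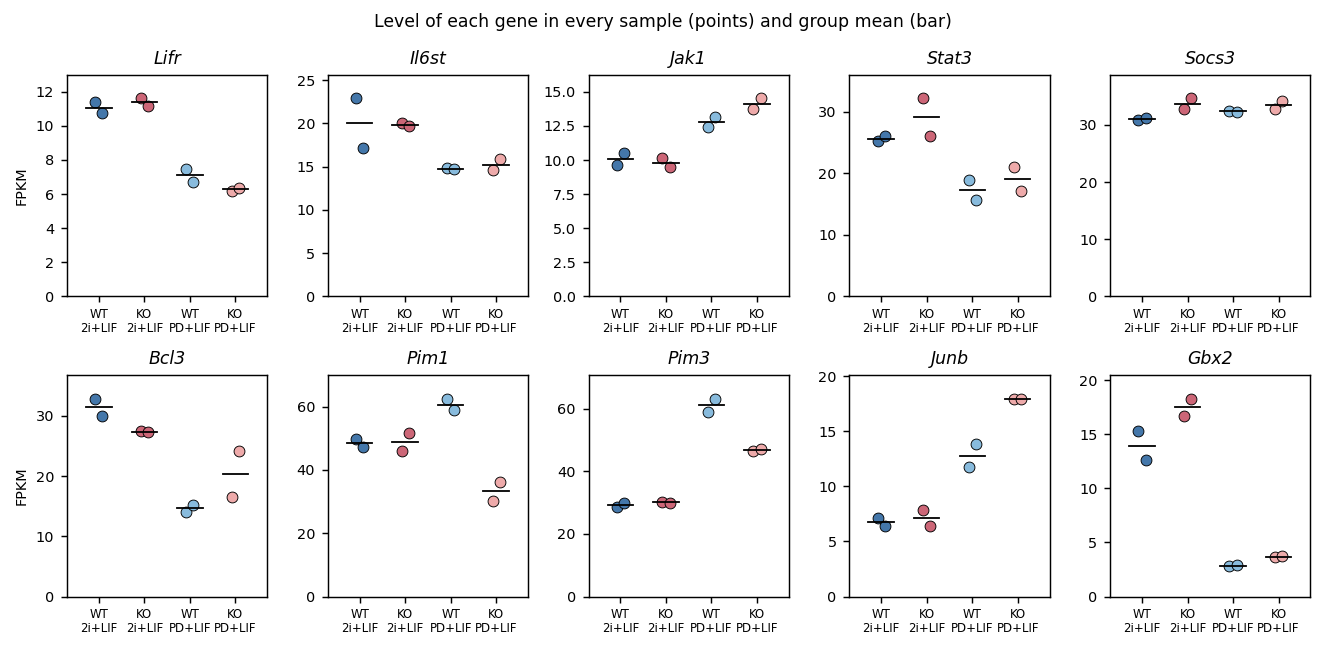
FPKM (vertical axis, from 0) of each of the 10 genes in every sample, with wild type (WT) and Trincr1 knockout (KO) in 2i + LIF and in PD + LIF, points for samples and a bar for the mean of the 2. Pim1 was lowest in knockout cells in PD + LIF (30.3 and 36.1 FPKM), Gbx2 was low in both genotypes in PD + LIF, and Socs3 stayed between 30.9 and 34.7 FPKM.

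In wild-type cells in 2i + LIF the 10 genes spanned a range from 48.6 ± 1.79 FPKM (SD, n = 2) for Pim1 to 6.76 ± 0.507 FPKM for Junb. Between them, in falling order of the mean, stood Bcl3, Socs3, Pim3, Stat3, Il6st, Gbx2, Lifr and Jak1. Only Bcl3 (31.4 ± 2.07 FPKM) and Socs3 (31.0 ± 0.207 FPKM) overlapped among neighbours in that order. In knockout cells in 2i + LIF the first place and the last were again held by Pim1 (48.7 ± 3.91 FPKM) and Junb (7.15 ± 1.02 FPKM), and the samples of Pim3 overlapped with those of Stat3, and those of Stat3 with those of Bcl3. In PD + LIF, Pim3 came first in both genotypes, with 61.1 ± 3.04 FPKM in wild-type and 46.9 ± 0.601 FPKM in knockout cells, and Gbx2 came last, with 2.86 ± 0.0250 and 3.69 ± 0.0548 FPKM. Pim3 and Pim1 overlapped there in wild-type cells, as did Il6st with Bcl3 and Jak1 with Junb, while in knockout cells the overlapping neighbours were Socs3 with Pim1, Bcl3 with Stat3 and Stat3 with Junb.

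The first comparison asked what loss of Trincr1 did to the LIF pathway while GSK3 was inhibited. None of the 10 genes passed the threshold of 0.05 on the adjusted p (limma on log2(FPKM + 1), Benjamini-Hochberg over 15430 genes), where 1.21% of all genes did, 0.350% being higher and 0.855% lower in the knockout. Their log2 fold changes ran from -0.19 for Bcl3 to 0.31 for Gbx2 with a median of 0.04, beside 0.00 over all genes tested. Samples of the genotypes did not overlap for 5 of the 10 genes (Stat3, Socs3, Bcl3, Pim3 and Gbx2), against 44.4% of all genes. The unadjusted p was under 0.05 for 14.6% of all genes and, among the 10, for Gbx2 alone, at 12.7 and 15.3 FPKM in wild-type and 16.7 and 18.3 FPKM in knockout cells (log2 fold change 0.31 ± 0.11 SE, adjusted p = 0.241).

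In PD + LIF, where GSK3 was not inhibited, the same comparison gave 3 of the 10 genes past the threshold, where 12.1% of all genes were. The serine/threonine kinases Pim1 and Pim3 were lower in knockout cells (5.77% of all genes were lower), and the AP-1 factor Junb was higher (6.29% were higher). Lifr, Il6st, Jak1, Stat3, Socs3, Bcl3 and Gbx2 did not pass, and Bcl3 and Gbx2 brought the genes at an unadjusted p under 0.05 to 5 of the 10, beside 28.5% of all genes. Samples did not overlap between the genotypes for 8 of the 10 genes, all but Il6st and Stat3, against 57.7% of all genes. Only the difference of the genotype effect between the media bears on whether a gene responded otherwise with CHIR99021 than without it. Pim1 and Pim3 passed that test and the other 8 genes did not, beside 1.81% of all genes, 0.992% with a higher and 0.817% with a lower effect in PD + LIF.

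**Figure D2:**
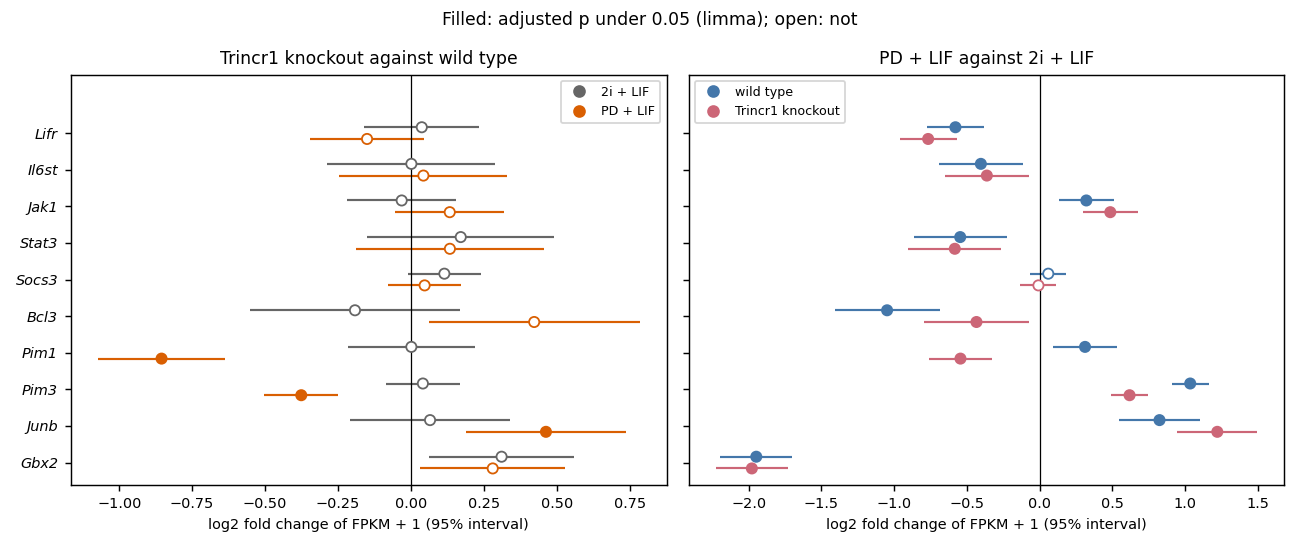
Log2 fold change of FPKM + 1 (horizontal axis) with its unadjusted 95% interval for each gene, for knockout against wild type in both media (left) and for PD + LIF against 2i + LIF in both genotypes (right), with filled points at an adjusted p under 0.05. On the left, only Pim1, Pim3 and Junb in PD + LIF are filled, and on the right every point but the pair for Socs3.

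The receptor genes had their lower levels in PD + LIF. Lifr, the subunit that gives the receptor its specificity for LIF, read 11.4 and 10.8 FPKM in wild-type and 11.6 and 11.2 FPKM in knockout cells in 2i + LIF. In PD + LIF it read 7.47 and 6.71 FPKM in wild-type and 6.20 and 6.37 FPKM in knockout cells. All 4 samples in PD + LIF lay below all 4 in 2i + LIF, and the fall on the log2 scale was -0.58 ± 0.08 in wild-type cells (adjusted p = 0.00103) and -0.77 ± 0.08 in knockout cells (adjusted p = 0.000287). Within PD + LIF the knockout samples were below the wild-type ones by less than the test could call (log2 fold change -0.15, 95% interval -0.35 to 0.05, adjusted p = 0.289).

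Il6st, which encodes gp130, the signal-transducing subunit shared by the cytokines of the IL-6 family, read 22.9 and 17.1 FPKM in wild-type and 20.0 and 19.7 FPKM in knockout cells in 2i + LIF. Without CHIR99021 it read 14.8 and 14.7 FPKM and 14.6 and 15.9 FPKM. The media did not overlap and the genotypes did. The log2 fold change between the media was -0.40 ± 0.12 in wild-type cells (adjusted p = 0.0271) and -0.36 ± 0.12 in knockout cells (adjusted p = 0.0420). These calls were lost in 5 and 9 of 15 alternative analyses, with the wild-type value at -0.21 (adjusted p = 0.095) without wild-type sample 1 in 2i + LIF, the highest one. They were also lost without either wild-type sample in PD + LIF, for the wild-type call, and for the knockout call without any one sample of either genotype in PD + LIF or of the knockout in 2i + LIF (adjusted p at most 0.182). Il6st FPKM was 1.80 ± 0.298 times that of Lifr in wild-type and 1.74 ± 0.0299 times in knockout cells in 2i + LIF, and 2.08 ± 0.150 and 2.42 ± 0.0992 times in PD + LIF.

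Jak1, the tyrosine kinase bound to gp130, went the other way from the receptor genes. It read 9.60 and 10.5 FPKM in wild-type and 10.1 and 9.51 FPKM in knockout cells in 2i + LIF, and 12.4 and 13.2 FPKM and 13.8 and 14.5 FPKM in PD + LIF. All samples in PD + LIF were above all in 2i + LIF, by 0.32 ± 0.08 in log2 in wild-type (adjusted p = 0.0123) and 0.49 ± 0.08 in knockout cells (adjusted p = 0.00198). The wild-type call was lost without wild-type sample 1 in 2i + LIF (adjusted p = 0.070) or sample 2 in PD + LIF (adjusted p = 0.066).

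Stat3 read 25.2 and 26.1 FPKM in wild-type and 32.2 and 26.1 FPKM in knockout cells in 2i + LIF. Its PD + LIF samples read 18.9 and 15.7 FPKM in wild-type and 21.1 and 17.2 FPKM in knockout cells. The media did not overlap, and the spread of the knockout samples was wider than that of the wild-type ones in both. Stat3 mRNA fell to 67.5% of its mean in 2i + LIF in wild-type cells (log2 fold change -0.55 ± 0.14, adjusted p = 0.0126) and to 65.6% in knockout cells (-0.58 ± 0.14, adjusted p = 0.00993). The wild-type call was lost without either wild-type sample in 2i + LIF or sample 2 in PD + LIF, and the knockout call without knockout sample 1 in 2i + LIF or sample 2 in PD + LIF (adjusted p between 0.052 and 0.085). Genotypes did not differ detectably in PD + LIF, with a 95% interval from -0.19 to 0.45 in log2. These are mRNA levels, and STAT3 phosphorylation was not measured by these files.

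Socs3, the feedback inhibitor whose transcription STAT3 drives, was the one gene of the 10 that passed in neither medium comparison. It read 30.9 and 31.2 FPKM in wild-type and 32.7 and 34.7 FPKM in knockout cells in 2i + LIF, and 32.4 and 32.3 FPKM and 32.8 and 34.2 FPKM in PD + LIF. The lowest and highest of the 8 samples were 30.9 and 34.7 FPKM. Between the media the 95% interval in log2 was -0.06 to 0.18 in wild-type and -0.13 to 0.12 in knockout cells, which leaves room for changes of that size. In the same cells Stat3 mRNA was lower, so Socs3 FPKM per Stat3 FPKM went from 1.21 ± 0.0191 to 1.89 ± 0.242 in wild-type and from 1.17 ± 0.221 to 1.78 ± 0.311 in knockout cells. The 3 genes whose log2(FPKM + 1) was most alike that of Socs3 over the 8 samples, of 12062 with a mean above 1 FPKM, were Dctn2 (Pearson r = 0.928), Nckap1 (r = 0.925) and 4930539J05Rik (r = 0.924). Of the 12062 genes, 7 had r above 0.9 with Socs3, whose own level varied little over the 8 samples. All genes were read in the same 8 libraries, and the r values are descriptions.

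STAT factors bind the palindrome TTCNNNGAA. In promoter windows of 250 bases before to 50 after the RefSeq start (GRCm38.p6), searched on both strands, the 10 genes had 12 windows and 1 of them held it, that of Socs3, beside 8.30% of all 32851 windows. The match lies 154 to 146 bases before the start and is shown in capitals with 10 bases on either side, at chr11:117969502-117969530 on the minus strand.

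Socs3: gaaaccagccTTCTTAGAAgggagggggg

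For the other 9 genes these letters were not in this window, which says nothing of sites elsewhere. CTTTGAT and CTTTGAA, core letters bound by TCF/LEF factors, which act in the pathway that GSK3 inhibition activates, were in 0 of the 12 windows, beside 3.73% and 5.14% of all windows. The matches are letters in a window, and no binding was measured.

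Among the targets, the PIM kinase genes Pim1 and Pim3 were lower in knockout than in wild-type cells in PD + LIF. PIM1 phosphorylates substrates that favour growth and survival, and Pim1 and Pim3 are STAT3 targets in ESCs. Pim1 read 49.9 and 47.4 FPKM in wild-type and 46.0 and 51.5 FPKM in knockout cells in 2i + LIF. In PD + LIF it read 62.5 and 58.7 FPKM in wild-type but 30.3 and 36.1 FPKM in knockout cells. The genotypes overlapped in 2i + LIF, and in PD + LIF both knockout samples were below the other 6 samples. Pim1 was at 54.7% of wild type there (log2 fold change -0.85 ± 0.09, 95% interval -1.07 to -0.64, adjusted p = 0.00370), and the call stood in all 15 alternatives. In 2i + LIF the interval was -0.22 to 0.22.

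Between the media, Pim1 therefore moved in opposite directions. It rose by 0.31 ± 0.09 in log2 in wild-type cells (adjusted p = 0.0253) and fell by 0.54 in log2 in knockout cells (SE 0.09, adjusted p = 0.00236). The wild-type rise was lost in 6 of 15 alternatives, among them without any one of the 4 wild-type samples (adjusted p from 0.061 to 0.128), while the knockout fall stood in all 15. These comparisons and the genotype comparison in PD + LIF share samples. The difference of the genotype effect between media was -0.86 ± 0.13 (adjusted p = 0.0331), and this call was lost in 11 of 14 alternatives, without any one of the 8 samples among them, with adjusted p up to 0.123. Its value stayed between -0.98 and -0.73 throughout.

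Pim3, a related kinase, read 28.6 and 30.0 FPKM in wild-type and 30.3 and 30.0 FPKM in knockout cells in 2i + LIF. Without CHIR99021 the samples read 59.0 and 63.3 FPKM in wild-type and 46.4 and 47.3 FPKM in knockout cells. Both genotypes were thus higher in PD + LIF, with the knockout samples between the wild-type ones and the 2i + LIF level. Pim3 rose to 209% of its level in 2i + LIF in wild-type cells (log2 fold change 1.04 ± 0.05, adjusted p = 1.42e-05) and to 155% in knockout cells (0.62 ± 0.05, adjusted p = 0.000101). Knockout cells in PD + LIF were at 76.6% of wild type (log2 fold change -0.38 ± 0.05, adjusted p = 0.00831), a call lost in a fit of only those 4 samples (adjusted p = 0.0535) and without knockout sample 1 in PD + LIF (adjusted p = 0.0641). The difference of the genotype effect between media was -0.42 ± 0.08 (adjusted p = 0.0490), and this call was lost in 12 of 14 alternatives, without any one of the 8 samples among them (adjusted p up to 0.153).

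Pim2, the remaining PIM gene and one of the other reported STAT3 targets, stood higher in the knockout. It read 8.29 and 9.92 FPKM in wild-type and 17.6 and 14.0 FPKM in knockout cells in PD + LIF (log2 fold change 0.73 ± 0.15, adjusted p = 0.0238), after 5.24, 4.30, 4.98 and 5.69 FPKM in the 4 samples in 2i + LIF. The call was lost without any filter on low values, in a fit of only those samples, and without either wild-type sample or knockout sample 1 in PD + LIF (adjusted p between 0.052 and 0.137). Summed over Pim1 and Pim3, FPKM was 77.9 ± 0.775 in wild-type and 78.9 ± 3.71 in knockout cells in 2i + LIF, 122 ± 0.385 in wild-type cells in PD + LIF and 80.0 ± 4.73 in knockout cells in PD + LIF. Pim2 made up 5.76% ± 0.696, 6.33% ± 0.278 and 6.95% ± 0.797 of the summed FPKM of the 3 genes in the first 3 of these groups and 16.5% ± 3.01 in the last.

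**Figure D3:**
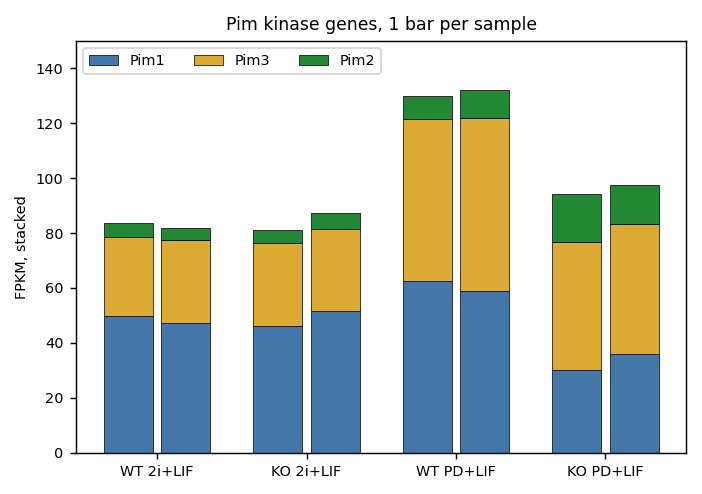
FPKM of Pim1, Pim3 and Pim2 stacked (vertical axis, from 0), 1 bar per sample, for wild type (WT) and Trincr1 knockout (KO) in 2i + LIF and PD + LIF. Pim1 and Pim3 together made 122 FPKM in wild-type cells in PD + LIF and between 77.9 and 80.0 FPKM on average in the other 3 groups, and the Pim2 segment is tallest in knockout cells in PD + LIF.

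The Pim1, Pim3 and Junb promoters are shown because these were the genes that differed between the genotypes. Each line holds the 100 bases before a single RefSeq start per gene (GRCm38.p6), for Pim1 the one of lowest coordinate. GGGCGG or its complement CCGCCC, the GC box bound by SP1-type factors, is in capitals. The windows are chr17:29490685-29490784 on the plus strand, chr15:88862094-88862193 on the plus strand and chr8:84978749-84978848 on the minus strand.

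Pim1: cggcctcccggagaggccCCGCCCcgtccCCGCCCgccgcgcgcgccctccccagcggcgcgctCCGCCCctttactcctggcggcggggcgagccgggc

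Pim3: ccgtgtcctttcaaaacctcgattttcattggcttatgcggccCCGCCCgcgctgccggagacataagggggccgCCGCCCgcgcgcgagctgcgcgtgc

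Junb: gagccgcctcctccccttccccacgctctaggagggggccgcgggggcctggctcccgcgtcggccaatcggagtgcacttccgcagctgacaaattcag

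Over the 250 bases before these starts, searched on both strands, GGGCGG occurred 7 times for Pim1, 3 times for Pim3 and 0 times for Junb. It was in 9 of the 12 windows of the 10 genes and in 32.7% of all windows, and TATAAA was in 0 of the 12 and in 12.4% of all. The 9 windows came from 9 different genes, Pim1 among them, so any other window of the same gene held no GGGCGG. With a single window taken per gene, the GC content of the 250 bases ran from 60.8% for Stat3 to 82.4% for Lifr and Pim1. The median over all windows was 52.4%.

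Junb, an AP-1 subunit and an immediate early gene that LIF induces through STAT3 and that ERK signaling also induces, read 7.12 and 6.40 FPKM in wild-type and 7.87 and 6.42 FPKM in knockout cells in 2i + LIF. In PD + LIF it read 11.7 and 13.8 FPKM in wild-type and 18.0 and 17.9 FPKM in knockout cells. All 4 samples in PD + LIF were above those in 2i + LIF, and the knockout samples there were above the wild-type ones. Junb rose by 0.82 ± 0.12 in log2 in wild-type cells (adjusted p = 0.000947) and by 1.22 ± 0.12 in knockout cells (adjusted p = 0.000155), and both calls stood in all 15 alternatives. The genotype difference in PD + LIF (log2 fold change 0.46 ± 0.12, adjusted p = 0.0459) was lost in 11 of 15, without any one sample of either genotype in PD + LIF or of the wild type in 2i + LIF among them, with adjusted p up to 0.201. The difference between the media in this genotype effect was not called (0.40, 95% interval 0.01 to 0.79, adjusted p = 0.253).

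Bcl3, a nuclear IκB family protein that acts as a cofactor of NF-κB subunits, read 32.9 and 30.0 FPKM in wild-type and 27.4 and 27.3 FPKM in knockout cells in 2i + LIF. Its samples in PD + LIF read 14.1 and 15.3 FPKM in wild-type and 16.5 and 24.2 FPKM in knockout cells. The knockout samples in PD + LIF were further apart than those of any other group, and both were above the wild-type ones. Bcl3 fell to 46.7% of its level in 2i + LIF in wild-type cells (log2 fold change -1.05 ± 0.15, adjusted p = 0.00110), a call that stood in all 15 alternatives. In knockout cells the value was -0.43 ± 0.15 (adjusted p = 0.0498), lost in 12 of 15 alternatives and without any one sample other than knockout sample 2 in PD + LIF. Without knockout sample 1 in PD + LIF, this fall was -0.17 (adjusted p = 0.170) and the genotype difference there passed at 0.68 (adjusted p = 0.0341), in place of 0.42 ± 0.15 (adjusted p = 0.123) with both samples. Without knockout sample 2, these values were -0.70 (adjusted p = 0.00248) and 0.16 (adjusted p = 0.332). The difference of the genotype effect between media was not called (0.61, adjusted p = 0.191).

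Gbx2, a homeobox transcription factor that sustains ESC self-renewal downstream of STAT3, had the largest change between media of the 10 genes. It read 15.3 and 12.7 FPKM in wild-type and 16.7 and 18.3 FPKM in knockout cells in 2i + LIF. In PD + LIF it read 2.84 and 2.88 FPKM in wild-type and 3.65 and 3.73 FPKM in knockout cells. PD + LIF levels were 20.5% and 21.1% of those in 2i + LIF (log2 fold changes -1.95 ± 0.11, adjusted p = 1.62e-05, and -1.98 ± 0.11, adjusted p = 1.20e-05). Knockout samples were above the wild-type ones in both media, by 0.31 ± 0.11 and 0.28 ± 0.11, and neither difference passed (adjusted p = 0.241 and 0.134). The difference between these values had a 95% interval of -0.38 to 0.32 (adjusted p = 0.942). The genes with the pattern most alike over the 8 samples were Mitf (r = 0.997), Slc30a2 (r = 0.996) and Ino80e (r = 0.996), and 1719 of the 12062 genes had r above 0.9.

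Over the 10 genes, 9 passed between the media in wild-type cells, where 52.2% of all genes did, and 9 in knockout cells, where 50.0% did. In wild-type cells 4 were higher (Jak1, Pim1, Pim3, Junb) and 5 lower (Lifr, Il6st, Stat3, Bcl3, Gbx2), where 30.9% of all genes were higher and 21.3% lower, with a median log2 fold change of -0.17 beside 0.08 over all genes. In knockout cells 3 were higher and 6 lower, Pim1 having changed sides, where 29.6% of all genes were higher and 20.3% lower, with a median of -0.40 beside 0.07. Samples did not overlap between the media for all 10 genes in wild-type cells (76.4% of all genes) and for 9 in knockout cells (74.5%), Socs3 being the exception. Receptor genes and Stat3 were lower without CHIR99021 while targets went both ways.

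The other genes of the pathway were read from 3 lists. Of 24 other ligands, receptors and transducers, 20 were above the filter, and Il6, Il11, Osmr and Il27ra were below it, the last being at most 0.418 FPKM. In 2i + LIF, 0 of the 20 passed between the genotypes in limma, and 2 (Lif and Jak3) had an unadjusted p under 0.05, where 14.6% of all genes did. In PD + LIF 8 of the 20 had an unadjusted p under 0.05, where 28.5% of all genes did, and 2 passed after adjustment, where 12.1% of all genes did. Both were higher: Cntfr, the CNTF receptor subunit, at 3.87 and 5.45 FPKM in wild-type and 9.75 and 7.81 FPKM in knockout cells (log2 fold change 0.80 ± 0.17, adjusted p = 0.0304), and Ptpn11, the phosphatase SHP2 that links gp130 to RAS and ERK, at 25.5 and 23.2 FPKM against 32.9 and 31.9 FPKM (0.40 ± 0.07, adjusted p = 0.0179). The Cntfr call was lost without wild-type sample 1 or either knockout sample in PD + LIF or either wild-type sample in 2i + LIF, and the Ptpn11 call without any one of the 4 samples in PD + LIF. Both calls were also lost in a fit of only the 4 samples in PD + LIF (adjusted p = 0.0984 for Cntfr and 0.0637 for Ptpn11). The median over the 20 was -0.00 in log2 there, beside 0.01 over all genes. Between the media 7 were higher and 3 lower in wild-type cells, where 30.9% and 21.3% of all genes were. In knockout cells 9 were higher and 3 lower, where 29.6% and 20.3% of all genes were. Cntfr rose by 2.05 ± 0.17 and 2.81 ± 0.17 in log2 between the media. Il11ra1, the IL-11 receptor subunit, rose by 1.31 ± 0.17 in wild-type and 1.80 ± 0.17 in knockout cells. Il6ra, the IL-6 receptor subunit, was between 4.30 and 5.39 FPKM in the 4 samples in 2i + LIF and at most 0.190 FPKM in PD + LIF (log2 fold changes -2.23 and -2.46).

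Lif itself, the ligand, was transcribed at 1.29 and 2.38 FPKM in wild-type and 0.662 and 0.707 FPKM in knockout cells in 2i + LIF. In PD + LIF, levels were 7.15 and 6.31 FPKM in wild-type and 3.87 and 3.68 FPKM in knockout cells. Knockout samples were below wild-type ones in both media without passing (adjusted p = 0.137 and 0.0529), the value in PD + LIF passing without either wild-type sample in 2i + LIF (adjusted p = 0.0248 and 0.0255), and the rise between the media was 1.47 ± 0.18 in log2 in wild-type cells (adjusted p = 0.000531) and 1.50 ± 0.18 in knockout cells (adjusted p = 0.000497). Osm, the related ligand oncostatin M, fell in both genotypes. It went from 6.84 and 4.49 to 1.59 and 2.06 FPKM in wild-type cells (log2 fold change -1.22 ± 0.20, adjusted p = 0.00177) and from 4.73 and 6.14 to 0.909 and 0.979 FPKM in knockout cells (-1.72 ± 0.20, adjusted p = 0.000369).

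Of 14 negative regulators of JAK and STAT, all above the filter, 0 passed between the genotypes in 2i + LIF in limma, with 1 (Pias3) at an unadjusted p under 0.05, where 14.6% of all genes were. In PD + LIF 2 were at an unadjusted p under 0.05 (28.5% of all genes) and 1 passed after adjustment (12.1% of all genes), with a median log2 fold change of 0.01, as over all genes. That was Pias4, a SUMO ligase of the PIAS family, at 35.2 and 36.9 FPKM in wild-type and 29.5 and 29.4 FPKM in knockout cells (log2 fold change -0.28 ± 0.06, adjusted p = 0.0318). Its call was lost without any one sample in PD + LIF or of the knockout in 2i + LIF. It was also lost in a fit of only the 4 samples in PD + LIF (adjusted p = 0.0667). Between the media 6 were higher and 2 lower in wild-type cells, where 30.9% and 21.3% of all genes were, led by Cish, a SOCS family inhibitor (1.26 ± 0.23), Pias3 (0.86 ± 0.07) and Socs5 (0.59 ± 0.12). In knockout cells 5 were higher and 1 lower, where 29.6% and 20.3% of all genes were. Pias1 rose there by 0.72 ± 0.09, Socs7 rose by 0.62 ± 0.16 and Pias2 fell by 0.70 in log2. Pias1 (0.58 ± 0.09), Socs7 (0.57 ± 0.16) and Pias2 (-0.57 ± 0.06) also passed in wild-type cells. Pias3 (0.53 ± 0.07) and Socs5 (0.54 ± 0.12) also passed in knockout cells, and Cish did not (0.65 ± 0.23, limma adjusted p = 0.0522). The Socs7 call in knockout cells was lost without either knockout sample in 2i + LIF or sample 2 in PD + LIF. In wild-type cells it was lost without wild-type sample 2 in 2i + LIF (0.33) or either wild-type sample in PD + LIF (0.56 and 0.59).

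Of 19 other reported STAT3 targets, 0 passed between the genotypes in 2i + LIF in limma, with 5 at an unadjusted p under 0.05 (Klf4, Sall4, Cebpb, Irf1 and Tnfrsf1a), where 14.6% of all genes were. In PD + LIF 12 were at an unadjusted p under 0.05, where 28.5% of all genes were. After adjustment 5 were higher and 4 lower in knockout cells, where 6.29% and 5.77% of all genes were, with a median log2 fold change of 0.20 beside 0.01 over all genes. Myc, the growth regulator, read 3.60 and 3.95 FPKM in wild-type and 11.0 and 8.29 FPKM in knockout cells (log2 fold change 1.14 ± 0.18, adjusted p = 0.00975). Tfcp2l1, a naive pluripotency factor that STAT3 activates, read 24.2 and 21.5 FPKM in wild-type and 13.1 and 14.3 FPKM in knockout cells (-0.69 ± 0.07, adjusted p = 0.00363). The others were Pim2, Tnfrsf1a, Bcl2l1 and Sall4 on the higher side and Icam1, Irf1 and Mcl1 on the lower, so that targets moved in both directions here as among the first 10. The Myc call was lost without either wild-type sample or knockout sample 1 in PD + LIF. In a fit of only the 4 samples in PD + LIF the calls on Myc and Tfcp2l1 were lost (adjusted p = 0.053 and 0.051). Those on Irf1, Mcl1, Sall4 and Tnfrsf1a were lost there too (adjusted p = 0.0507, 0.0535, 0.0607 and 0.0535). Icam1 and Bcl2l1 stood in all 15 alternatives. Irf1 was also lost without any one sample in PD + LIF, Mcl1 without wild-type or knockout sample 1 in PD + LIF, and Sall4 without knockout sample 1 in PD + LIF. Tnfrsf1a was also lost without any one sample in PD + LIF or of the wild type in 2i + LIF. The genotype effect differed between the media for Tfcp2l1 (-0.75 ± 0.10, adjusted p = 0.0277) and for the survival gene Bcl2l1 (0.52 ± 0.07, adjusted p = 0.0280), calls that were lost without any one of the 8 samples, with adjusted p up to 0.112 and 0.113. Between the media 10 were higher and 6 lower in wild-type cells (30.9% and 21.3% of all genes) and 9 and 6 in knockout cells (29.6% and 20.3% of all genes), with Tfcp2l1 at -2.12 ± 0.07 and -2.86 ± 0.07. Cebpb, a bZIP factor, rose by 1.18 ± 0.20 and 2.28 ± 0.20 in log2, Ccnd1, which encodes cyclin D1, fell by 1.31 in wild-type cells (SE 0.08), and Pim2 rose by 1.40 ± 0.15 in knockout cells. In the other genotype the same changes passed too, the Ccnd1 fall in knockout cells (limma adjusted p = 8.57e-05) and the Pim2 rise in wild-type cells (limma adjusted p = 0.00292).

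**Figure D4:**
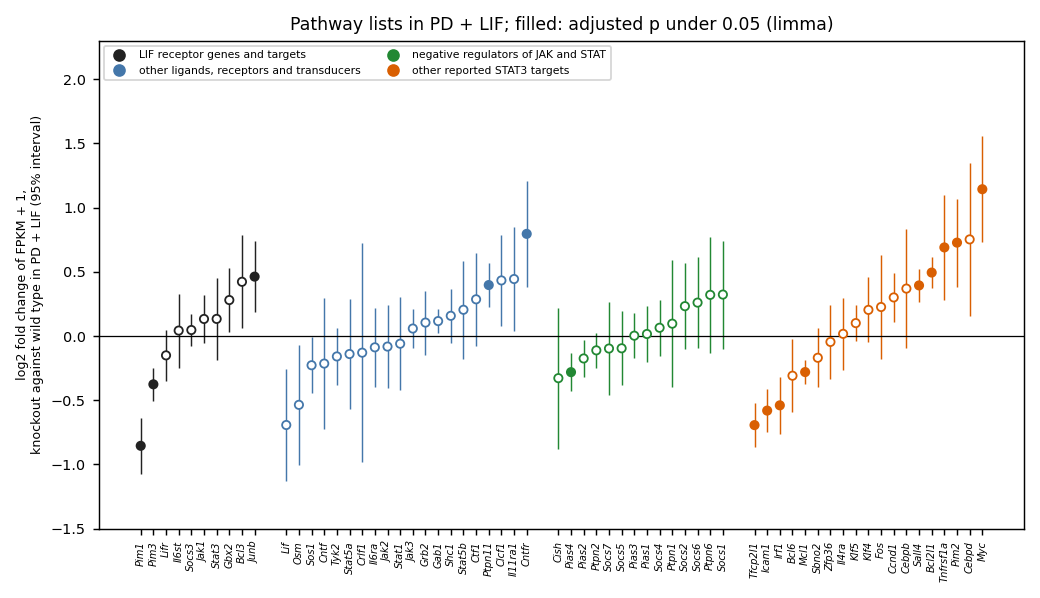
Log2 fold change of FPKM + 1 with its unadjusted 95% interval (vertical axis), knockout against wild type in PD + LIF, for the 10 genes and the 3 other pathway lists (horizontal axis, 1 gene per position), filled at an adjusted p under 0.05. The points past the threshold lie on both sides of 0 in the 10 genes and among the other STAT3 targets, from -0.85 for Pim1 to 1.14 for Myc.

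A further readout came from ESCs in 2i + LIF that overexpressed 3XFLAG-TRIM71, the RNA-binding protein that Trincr1 binds, where RNA was recovered with a FLAG antibody after UV crosslinking and set against the input. The table gives 1 value per fraction, so these ratios have no SD and no test, and the control pulldown labelled empty was not used here. Of the 10 genes, 9 were above an input of 2 FPKM, and 1, Junb, was above a 3-fold ratio of scaled FPKM, where 5.10% of 9651 transcripts were. For Junb, 28.5 FPKM in the pulldown stood against 18.8 FPKM before it, a scaled ratio of 3.41 that ranked 421 of 9651, and a ratio of 1.52 without the scaling. Stat3 came next at 1.59 and Bcl3 at 1.42. The remaining targets and the inhibitor were below the input: 0.393 for Pim3, 0.359 for Socs3 and 0.263 for Pim1. The receptor subunit Il6st was at 0.264, and Lifr and Jak1 were listed at 0 in the pulldown, as were 52.5% of the 3868 transcripts with an input between 5 and 20 FPKM. The median ratio over all 9651 was 0.0571.

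Gbx2 was at 0.6 FPKM in that input, under the 2 FPKM minimum, and listed at 0 in the pulldown. The same gene read 14.0 ± 1.84 FPKM in wild-type cells in 2i + LIF, the medium of the pulldown cells. The input was 0.0430 times that level. On another scale, log2(FPKM + 1) of the input minus that of wild-type cells, Gbx2 was at -3.22. Of 11683 genes compared, 55 were at or below this value. Genes of low level cannot reach it on that scale, so the 55 do not rank the ratio of 0.0430. Socs3, Pim3 and Junb read higher in the input, at 3.56, 3.32 and 2.78 times their wild-type level. These tables were normalized separately, and the cells differed in the FLAG construct. By the methods, total RNA was purified on poly-T beads, while RNA from the pulldown experiment went directly to cDNA. They do not say separately how the input was handled. What sets these ratios was not tested.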

How the data were processed

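RNA-seq of 8 samples was aligned by the authors with STAR 2.5.0 and quantified with Cufflinks 2.2.1, and the deposited values are FPKM per gene. The methods name the mouse build mm9, while the loci in the table lie within 1000 bases of RefSeq GRCm38.p6 genes for 76.6% of 19982 protein-coding genes, so no locus is printed from it. For the pulldown, the authors deposited FPKM and a scaled signal for input and TRIM71 fractions, each 1 value for 2 labelled replicates, and their own fold enrichment, which was not used.

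Of 41260 entries, 39 gene identifiers occurred more than once and of these the most abundant entry was used. Fits used limma 3.58.1 in R 4.3.3 on log2(FPKM + 1) with a variance trend, 1 mean per group, 4 residual degrees of freedom, two-sided tests, genes above a mean of 0.2 FPKM and Benjamini-Hochberg adjustment over 15430 genes. A fold change on this scale understates the change of low genes. Values after ± are SD for levels and SE for log2 fold changes. Counts were not available here, so depth was estimated from the FPKM worth of single fragments in genes of 500 to 1500 bases, and the fragments of each gene from its longest transcript. On simulated data for the genotype comparison in PD + LIF, with 15430 genes and a log2 change of 1, 165 of 200 changed genes were recovered with 10 false calls. The simulation drew normal noise with the spread of each gene and changed only genes with a mean log2(FPKM + 1) above 1. Its change was larger than any genotype effect of the 10 genes in PD + LIF, the largest being -0.85 for Pim1. It therefore does not give the recovery of effects of their size.

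The 10 genes and the lists were chosen with earlier results of these data known. Named beyond the 10 were, per list and comparison, genes with the largest change past the threshold, and for Socs3 and Gbx2 the 3 most correlated genes. Osm, the genes given at an unadjusted p and the remaining called STAT3 targets were named after their values were seen. Promoter windows and their sequences are from RefSeq, and all 10 genes matched one. Alternatives were another pseudocount, another filter or none, median-ratio scaling, no variance trend, a replicate block, only the groups compared, and each sample left out.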

Additional observations from a re-analysis of the deposited data

Results flagged for a closer look

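Pim1 and Pim3 were noted because the effect of the knockout differed between the media in the limma test of that difference itself. For Pim1 the effect in PD + LIF minus that in 2i + LIF was -0.86 in log2 (adjusted p = 0.0331), with both knockout samples in PD + LIF below every other sample. For Pim3 it was -0.42 (adjusted p = 0.0490), with both knockout samples in PD + LIF below the wild-type ones there and above all samples in 2i + LIF. Both calls were lost when any one of the 8 samples was left out, and the direction was the same each time. With 2 samples per group no single sample can be called far from its group.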

How the results depend on the processing

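Of 3038 recomputed values, none reversed a call, which only log2 fold changes with a call could do. For the 10 genes, the call of the main fit was lost in 75 recomputed log2 fold changes and a call was gained in 1. Genes past the threshold for the genotype in 2i + LIF numbered 186 and went to 122 without a filter on low values, 111 with a replicate block and 0 in a fit of only those 4 samples. In PD + LIF they numbered 1861 and went to 316 in a fit of only those samples, where 1 of the 3 called genes, Pim1, stayed. For the difference of the genotype effect between media, 279 genes became 138 without a filter, 88 without the variance trend and 39 with a replicate block, and the called genes of the 10 went from 2 to 0 under each of these and to 1 with a pseudocount of 0.1. Without the authors' scaling, 0 of the 10 genes were above a 3-fold pulldown ratio in place of 1. The cause of these losses was not tested.

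Leaving out 1 sample assumes that the lone sample of its group varies like the other groups. It gave 40 to 113 genes for the genotype in 2i + LIF with 0 of the 10, 335 to 1519 with 2 to 3 of the 10 in PD + LIF, and 3 to 34 with 0 of the 10 for the difference between media. For the medium it gave 6473 to 7937 genes with 5 to 9 of the 10 in wild-type cells and 6136 to 7552 with 6 to 8 of the 10 in knockout cells. Deviations of samples with the same number correlated between -0.05 and 0.01 across groups over all genes tested, so no strong shift shared by the number was seen. This cannot tell whether such samples were grown or prepared together, and the block is only an alternative. Median-ratio scaling moved the median of all genes by at most 0.02 in log2, downward between media. Depth was only estimated, and 2 samples per group limit what differences can be called.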
